A study of Mus musculus with 9 samples.

Results

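The genes described here are the Wnt ligands, their receptors and secreted inhibitors, and the effectors of the pathway inside the cell. They were taken from the expression table by symbol: every Wnt, Fzd, Sfrp and Dkk gene, Axin1, Axin2 and the R-spondins, leaving out antisense symbols ending in os, with Lef1, Tcf7, Tcf7l1, Tcf7l2, Ctnnb1, Apc, Lrp5, Lrp6, Lgr4, Lgr5 and Wls added. They came to 46 of the 17482 genes in the table. The rule uses symbols alone, though it was set with earlier results of these data known.

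The series holds 9 bulk RNA-seq libraries of mouse tumour tissue labelled MB, taken on postnatal day 8 or 9, with 3 libraries in each of 3 groups. YSGr and YSGnr share the genotype fYap1;fSMO-M2;hGFAPcre and are called rescued and non-rescued in the design text, and SG is fSMO-M2;hGFAPcre. All 9 libraries therefore carry the fSMO-M2 allele, an activated form of the Hedgehog receptor component Smoothened, and the hGFAPcre transgene, in which Cre recombinase is driven by the human GFAP promoter. This driver is active in neural progenitors and glia rather than in every cell, so blood vessel, meningeal and immune cells in the tissue are not expected to have recombined either allele. What was rescued, the sex of the animals and whether libraries are separate animals are not stated in the labels, so the p-values measure only the spread between these libraries. The comparisons show how the Wnt genes differ between each fYap1 group and SG, and between the rescued and non-rescued groups of 1 genotype.

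Wnt proteins are lipid-modified, secreted ligands that bind Frizzled receptors together with the co-receptors Lrp5 and Lrp6. In the β-catenin branch this stops a scaffold built on Axin and Apc from having β-catenin degraded, and β-catenin then enters the nucleus and acts with the TCF/LEF factors, with Axin2 as a feedback gene that the pathway itself turns on. Wnt7a and Wnt7b are known in the brain for acting on blood vessel growth and on synapse formation, Wnt7a in the cerebellum being made by granule neurons, and Wnt5a is the usual ligand of the branches that do not use β-catenin.

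The values are log2 CPM (read counts scaled to the size of the library) as deposited, and a fold change is a difference of group means on that scale. A gene was tested if 3 or more of the 9 libraries had a value above 0, as was true of 38 of the 46 Wnt genes and of 15251 genes in all. A gene is said to have risen or fallen only where limma's moderated test gave a Benjamini-Hochberg adjusted p below 0.05 over all 15251 genes. The standard error (SE) of a fold change is the one limma gives, from the spread within all 3 groups.

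Some libraries stood apart. Effective library sizes were 18090000 to 32270000 reads in 8 libraries and 3917000 in YSGnr 1, where the genes Yam1 and Lars2 took 63.4% of the reads, against 1.98% to 8.15% elsewhere. YSGr 3 was the library farthest from the rest of its group at 31 of the 38 tested Wnt genes (81.6%), and at 71.3% of all tested genes. It lay nearer to YSGnr 2 and 3 than to YSGr 1 and 2 at 24 of the 38 (63.2%, against 66.3% of all tested genes). YSGnr 1 was the farthest of its group at 60.5% of the 38 and 59.9% of all. Fits that leave out YSGr 3 or YSGnr 1 therefore tend to have a narrower spread, and their adjusted p-values are given as a description. Yap1, the gene of the conditional allele, had 4.44, 3.31 and 2.79 log2 CPM in YSGr 1, 2 and 3, with 2.79, 2.57 and 1.99 in YSGnr 1, 2 and 3, and 5.04, 5.11 and 5.03 in SG 1, 2 and 3. It fell in both fYap1 groups (log2 fold change −1.55, adjusted p = 0.0327 in YSGr, and −2.61, adjusted p = 0.0131 in YSGnr), and a gene-level value does not show which exons remain. Xist, the RNA of the inactive X chromosome, ranged over 9.81 to 10.7 log2 CPM in YSGr and stood at 10.8 in YSGnr 1, and between −1.38 and −0.25 in YSGnr 2, YSGnr 3 and SG, while the Y-linked Ddx3y had no read in YSGr and YSGnr 1. YSGr and SG thus differ in this pattern in every library, so that it and the group cannot be told apart in that comparison.

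Across all 3 comparisons 7 of the 38 tested Wnt genes passed the test at least once. Wnt7a and Wnt10b rose and Wnt7b and Fzd1 fell in YSGr against SG. That is 4 of 38, or 10.5%, equal to the 10.5% of all tested genes called in that comparison (6.58% rose and 3.97% fell). Fzd1 and Tcf7l2 fell in YSGnr against SG, which is 2 of 38 (5.26%) where 3.36% of all tested genes were called (1.19% rose and 2.17% fell). No Wnt gene rose there by limma. At an unadjusted p below 0.05 by limma 1 of the 38 was above SG, as were 1692 of all 15251 tested genes. Wnt7a, Fzd5 and Dkk3 were higher in YSGr than in YSGnr, 3 of 38 (7.89%) where 5.97% of all tested genes were called (5.09% higher and 0.879% lower). The shares of Wnt genes called are thus near those of the whole table, and nothing about the family as a whole follows from them. In this bulk tissue, fewer cells of a type and less RNA per cell cannot be told apart in any of these differences.

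The other 34, 36 and 35 tested Wnt genes did not pass the test in the 3 comparisons. The median log2 fold change over the 38 was −0.16 in YSGr against SG and −0.30 in YSGnr against SG, with −0.02 and −0.01 over all tested genes, and 0.45 in YSGr against YSGnr, with 0.01 over all. Fold changes were below 0 for 22 of the 38 in YSGr against SG, for 27 in YSGnr against SG and for 12 in YSGr against YSGnr. Of all 15251 tested genes they were below 0 for 7973, 7725 and 7550 in the same comparisons. These counts include genes that differ by less than the spread between libraries. In YSGnr against SG all 3 libraries of one group lay outside the range of the other for 22 of the 38 (57.9%), where 38.2% of all tested genes did so. In 15 of these 22 the YSGnr libraries were the lower ones (39.5% of the 38, against 21.3% of all tested genes), and in 7 the higher ones (18.4%, against 16.9%). The same kind of separation held for 15 Wnt genes in YSGr against SG (39.5%, against 36.8%), where YSGr was lower for 12 (31.6%, against 17.3% of all tested genes) and higher for 3 (7.89%, against 19.5%), and for 9 in YSGr against YSGnr (23.7%, against 22.5%).

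**Figure D1:**
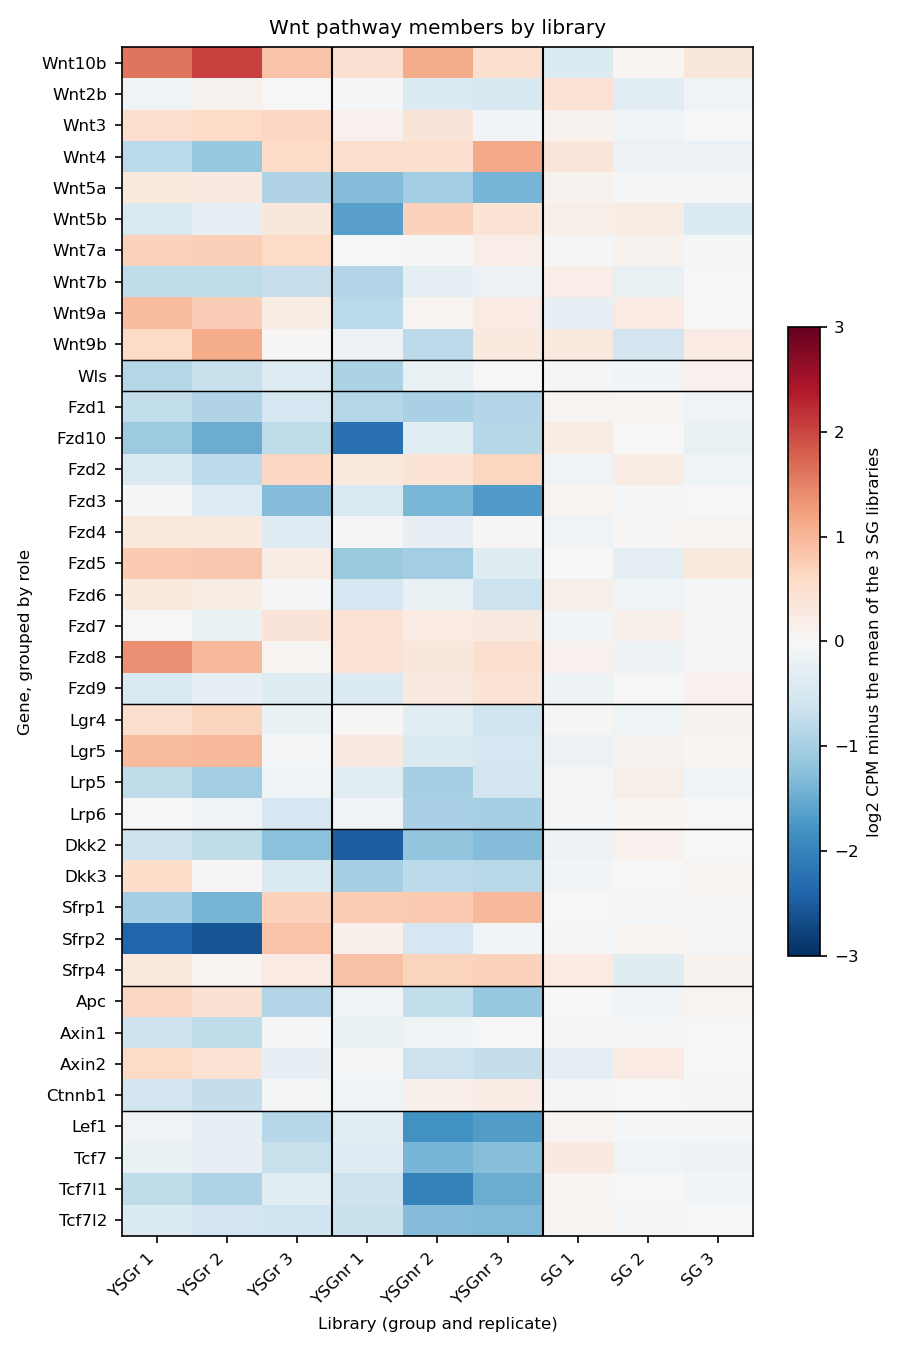
The 38 tested Wnt genes (rows, grouped by role) in the 9 libraries (columns, YSGr, YSGnr, SG), as log2 CPM minus the mean of the 3 SG libraries. Sfrp1, Sfrp2 and Wnt4 are lower in YSGr 1 and 2 but not in YSGr 3, and the 4 TCF/LEF rows at the bottom are lowest in YSGnr 2 and 3.

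**Figure D2:**
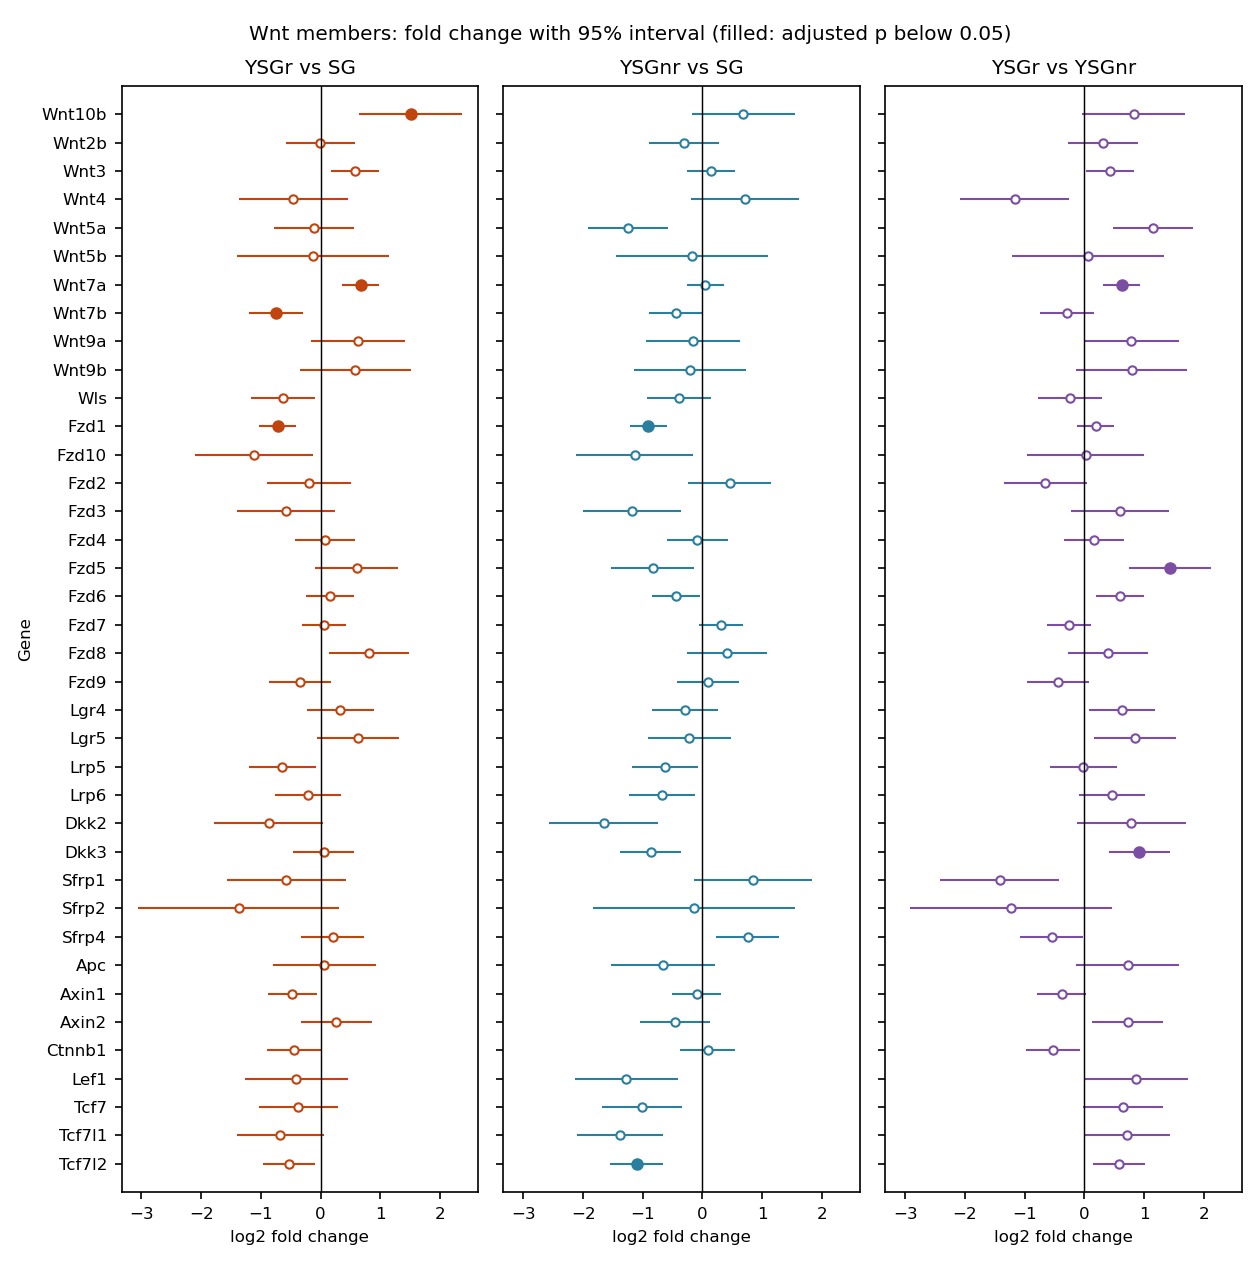
Log2 fold change of each tested Wnt gene with its unadjusted 95% interval, in YSGr against SG, YSGnr against SG and YSGr against YSGnr, with filled points where the adjusted p was below 0.05. The 4 calls in YSGr against SG, 2 in YSGnr against SG and 3 in YSGr against YSGnr are the filled points, and the widest interval is that of Sfrp2.

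Of the 14 ligands 10 were tested. In YSGr against SG 3 of them passed, where 10.5% of all tested genes were called. None passed in YSGnr against SG (3.36% of all) and 1 in YSGr against YSGnr (5.97% of all). With 10 genes, nothing about the ligands as a set follows from these counts. In YSGnr against SG 1 of the 10 was lower at an unadjusted p below 0.05 by limma, as were 2217 of all 15251 tested genes. Wnt7a (ENSMUSG00000030093, chromosome 6, 91363981 to 91411363, minus strand, in GRCm38) had values of 4.44, 4.47 and 4.35 log2 CPM in YSGr 1, 2 and 3, of 3.74, 3.68 and 3.96 in YSGnr, and of 3.68, 3.84 and 3.72 in SG. The 3 YSGr libraries, YSGr 3 among them, lay close together above all 6 others, and the YSGnr and SG ranges overlapped. Wnt7a rose 1.59-fold in YSGr against SG (log2 fold change 0.67 ± 0.14 SE, adjusted p = 0.0188) and was 1.54-fold higher in YSGr than in YSGnr (0.62 ± 0.14, adjusted p = 0.0399). Its difference between YSGnr and SG was 0.05 with a 95% interval of −0.26 to 0.35. The call against SG was lost without YSGr 1, YSGr 2 or any 1 of the SG libraries (adjusted p 0.0667 to 0.0931), and held under the 9 alternatives of other kinds.

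Genes of mature granule neurons and Purkinje cells also differed between the groups in which Wnt7a did, and those of the oligodendrocyte lineage mainly between YSGr and SG. Of a list of 12 mature granule neuron genes, 9 rose in YSGr against SG, 5 rose in YSGnr against SG and 9 were higher in YSGr than in YSGnr. Their summed level was 1405 to 2679 CPM in YSGr, 753 to 1224 in YSGnr and 662 to 810 in SG, and none of the 12 was without reads in any library. Among them Gabra6, a receptor subunit of mature granule neurons, was at 5.86, 6.23 and 5.36 log2 CPM in YSGr, 4.61, 3.92 and 4.16 in YSGnr, and 2.53, 2.77 and 2.96 in SG. YSGnr also lay above SG for Gabra6 (log2 fold change 1.47, adjusted p = 0.0227). Of 10 Purkinje cell markers 5 rose in YSGr against SG, 2 rose in YSGnr against SG and 7 were higher in YSGr than in YSGnr. Their summed level was 1624 to 2635 CPM in YSGr, 683 to 1207 in YSGnr and 979 to 1075 in SG, so that YSGnr overlapped SG. Of 12 oligodendrocyte lineage markers 7 rose and 3 fell in YSGr against SG, and none was higher and 1 was lower in YSGr than in YSGnr. Their sums were 2679 to 4048 CPM in YSGr, 1382 to 2439 in YSGnr and 1127 to 1727 in SG. Of 12 astrocyte and Bergmann glia markers 3 rose in YSGr against SG and 2 were higher in YSGr than in YSGnr, none going the other way. Their sums were 2750 to 3840 CPM in YSGr, 2005 to 2777 in YSGnr and 2951 to 3074 in SG. No marker of these lists was without reads in any library. The part of these cell types in the Wnt7a difference was not tested. YSGr was also 0.68 above YSGnr 1 for Wnt7a on the log2 scale, both with high Xist, and YSGnr 2 and 3 were 0.07 above SG, both with low Xist. YSGnr 1 is a single library, and the smallest.

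Wnt7b, the closely related ligand (ENSMUSG00000022382, chromosome 15, 85535437 to 85582473, minus strand), moved the other way. It was at 3.66, 3.66 and 3.76 log2 CPM in YSGr, at 3.56, 4.15 and 4.25 in YSGnr, and at 4.64, 4.22 and 4.45 in SG. The YSGr libraries were all below the SG libraries, and YSGnr was spread from below YSGr to the lower edge of SG. Wnt7b fell to 0.598 of the SG level in YSGr (log2 fold change −0.74 ± 0.20 SE, adjusted p = 0.0462), close to the threshold. Its level went with Xist, in that YSGr, at a mean of 3.69, was 0.13 above YSGnr 1 (3.56), both with high Xist, and YSGnr 2 and 3, at a mean of 4.20, were 0.24 below SG (4.44), both with low Xist. Outside YSGr the high Xist side rests on YSGnr 1 alone, the smallest library, with 46 reads of Wnt7b. Group and Xist cannot be told apart for Wnt7b in YSGr against SG. The call was lost without YSGr 1, YSGr 2, YSGnr 2 or any SG library (adjusted p 0.0616 to 0.183), and also with no filter on low values, without the mean-variance trend and with the replicate block. The exons of Wnt7b overlap the gene AU022754 on the opposite strand, and no source used here gives the strand setting of the libraries, so reads of the pair may be mixed.

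Within each library the log2 difference of Wnt7a minus Wnt7b does not depend on how libraries were scaled to each other. It was 0.77, 0.81 and 0.59 in YSGr 1, 2 and 3, 0.18, −0.46 and −0.30 in YSGnr 1, 2 and 3, and −0.95, −0.38 and −0.73 in SG 1, 2 and 3. The means were 0.73 ± 0.11 in YSGr, −0.19 ± 0.33 in YSGnr and −0.69 ± 0.29 in SG (SD, n = 3 each). Wnt7a exceeded Wnt7b in every YSGr library and in YSGnr 1, which are the libraries with high Xist, and Wnt7b exceeded Wnt7a in the other 5, which have low Xist. This pair was chosen after its values were seen, so the difference is a description with no test. Per kilobase of the longest annotated transcript, the most abundant ligands by mean level were Wnt7a (log2 CPM per kilobase 2.75) and Wnt7b (1.93) in YSGr, Wnt4 (2.44), Wnt7b (2.22) and Wnt7a (2.13) in YSGnr, and Wnt7b (2.67) and Wnt7a (2.08) in SG. The 3 in YSGnr lie within their spread between libraries.

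Wnt10b, a ligand known from bone, fat and hair follicle biology (ENSMUSG00000022996, chromosome 15, 98770712 to 98778150), was at 1.59, 2.05 and 0.85 log2 CPM in YSGr, 0.45, 1.11 and 0.46 in YSGnr, and −0.41, 0.04 and 0.34 in SG. Each YSGr library lay above each SG library, YSGr 3 nearest to them, and the YSGr and YSGnr ranges overlapped. Wnt10b rose 2.84-fold in YSGr against SG (log2 fold change 1.51 ± 0.38 SE, adjusted p = 0.0376). These are low levels, with 5 reads in YSGnr 1 and at least 12 in each other library. Among libraries alike in Xist, YSGr was 1.05 above YSGnr 1 and YSGnr 2 and 3 were 0.80 above SG. The call was lost without YSGr 1, YSGr 2, YSGnr 3 or any SG library (adjusted p 0.0530 to 0.157).

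**Figure D3:**
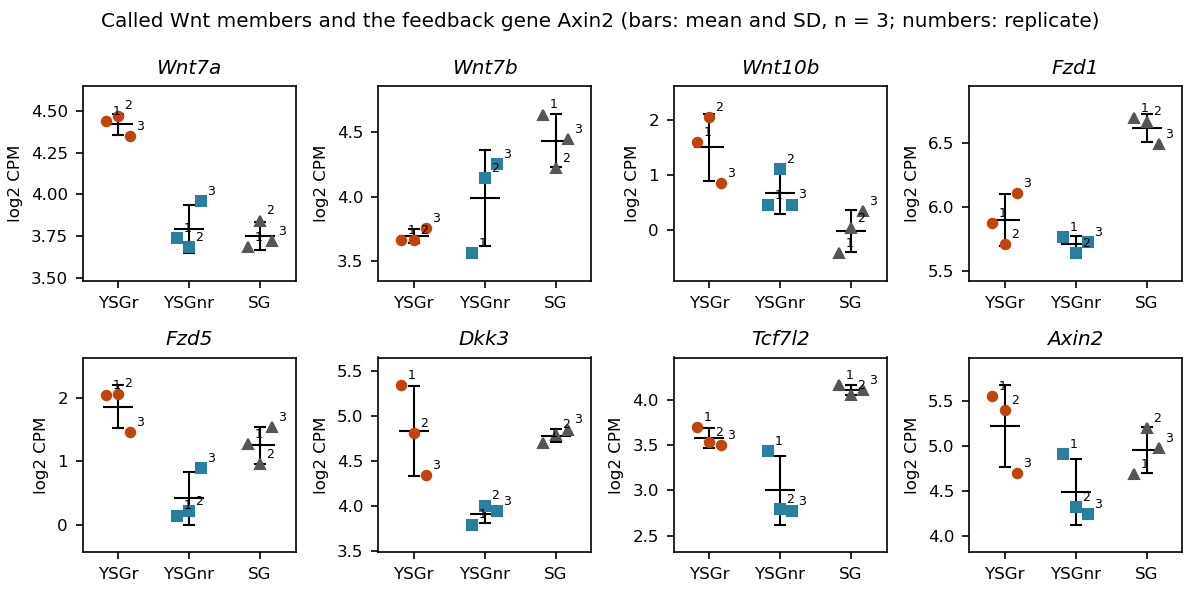
Log2 CPM of the 7 Wnt genes that passed the test in at least 1 comparison, and of Axin2, in YSGr, YSGnr and SG (points with replicate numbers, bars mean and SD, n = 3). Wnt7a is above 4.3 in the 3 YSGr libraries alone, and Fzd1 is above 6.4 in the 3 SG libraries alone.

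For Wnt5a and Wnt4 the YSGr libraries differed among themselves. Wnt5a was at 4.77, 4.71 and 3.54 log2 CPM in YSGr, 3.13, 3.40 and 3.06 in YSGnr, and 4.55, 4.39 and 4.40 in SG. Both YSGr 1 and 2 stood above SG, and YSGr 3 stood with the low YSGnr libraries. The difference between YSGnr and SG was −1.25 ± 0.30 SE (adjusted p = 0.0550) and that between YSGr and YSGnr 1.14 ± 0.30 (adjusted p = 0.0540), both just short of the threshold. Without YSGr 3 these became −1.25 (adjusted p = 0.00280) and 1.54 (adjusted p = 0.000316), in a fit where 17.3% and 42.8% of all tested genes were called. With the trend on length and GC removed, as described with Fzd3, they were −0.85 (adjusted p = 0.0658) and 0.78 (0.0561). Wnt4, a ligand of kidney and gonad development, was at 2.99, 2.67 and 4.37 in YSGr, 4.32, 4.28 and 4.93 in YSGnr, and 4.15, 3.63 and 3.62 in SG. Here YSGr 1 and 2 were below SG and YSGr 3 was above it. Wnt9a had 1.49, 1.30 and 0.81 in YSGr, −0.23, 0.66 and 0.82 in YSGnr, and 0.32, 0.81 and 0.60 in SG. Wnt9b had 1.18, 1.72 and 0.62 in YSGr, 0.45, −0.19 and 0.89 in YSGnr, and 0.89, 0.04 and 0.84 in SG, and the groups overlapped for both. Wnt2b, Wnt3 and Wnt5b did not pass in any comparison, with log2 fold changes between −0.31 and 0.57. The 4 untested ligands were Wnt6, Wnt10a, Wnt11 and Wnt16. The highest of them in any library was Wnt6 at 1.85 in YSGr 1, with 0.79 in YSGr 2, −1.93 in YSGr 3, and −1.54 to −0.31 in YSGnr and SG.

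Ligand secretion genes came next. Wls, the carrier that takes Wnt proteins to the cell surface, was at 4.52, 4.71 and 4.98 log2 CPM in YSGr, 4.41, 5.14 and 5.38 in YSGnr, and 5.34, 5.28 and 5.49 in SG. YSGr lay below SG in every library, but the difference did not pass the test (log2 fold change −0.63 ± 0.24 SE, adjusted p = 0.130). Porcn, the enzyme that attaches the lipid to Wnt proteins, is outside the 46 genes and among 8 listed secretion and processing genes. It was at 6.49, 6.49 and 5.75 in YSGr, 5.70, 5.60 and 5.48 in YSGnr, and 5.06, 4.87 and 5.12 in SG. The 3 groups did not overlap, with YSGr highest and SG lowest. Porcn rose 2.34-fold in YSGr against SG (log2 fold change 1.23 ± 0.20 SE, adjusted p = 0.00850) and was 0.58 ± 0.20 above SG in YSGnr without passing the test (adjusted p = 0.123). Within YSGnr, the high Xist library YSGnr 1 was at 5.70, against 5.60 and 5.48 in YSGnr 2 and 3. Group and Xist cannot be told apart for Porcn in YSGr against SG. Its call was lost only without SG 2 among the 9 fits that each left out 1 library (adjusted p = 0.0508). It was the only 1 of the 8 secretion genes to pass in any comparison. The R-spondins Rspo1, Rspo2 and Rspo3, secreted proteins that strengthen Wnt signalling, were too low to be tested, between −2.16 and 0.64 log2 CPM in every library.

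All 10 Frizzled receptors were tested, and 1 passed in each comparison, where 10.5%, 3.36% and 5.97% of all tested genes were called. Fzd1 (ENSMUSG00000044674, chromosome 5, 4753839 to 4758035, minus strand) was the 1 Wnt gene that fell in both fYap1 groups. It was at 5.88, 5.71 and 6.11 log2 CPM in YSGr, 5.77, 5.64 and 5.73 in YSGnr, and 6.69, 6.67 and 6.49 in SG. The 6 fYap1 libraries were all below the 3 SG libraries, and the YSGr and YSGnr ranges overlapped. Fzd1 fell to 0.608 of the SG level in YSGr (log2 fold change −0.72 ± 0.14 SE, adjusted p = 0.0153) and to 0.534 in YSGnr (−0.91 ± 0.14, adjusted p = 0.0158). YSGr differed from YSGnr by 0.19, with a 95% interval of −0.12 to 0.49. Both comparisons use the same SG libraries, so they are not independent of each other. Among libraries alike in Xist, YSGr was 0.13 above YSGnr 1 and YSGnr 2 and 3 were 0.93 below SG. The YSGr call was lost without YSGr 1, YSGr 2, SG 1 or SG 2 (adjusted p 0.0652 to 0.0828) and the YSGnr call without YSGnr 3 or any SG library (0.0597 to 0.111), and both held under the 9 alternatives of other kinds.

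The promoter of Fzd1 is printed because Fzd1 was the gene called in both fYap1 groups, and that of Axin2 because Axin2 is the usual readout of the pathway. RefSeq on GRCm38.p6 gave the 250 bases before the start of 29 of the 46 genes, as 38 windows. The windows were searched on both strands for the core letters of the TCF/LEF motif (CTTTGA), of the TEAD factors that Yap1 acts through (GGAATG) and of the Hedgehog factors GLI (GACCACCCA). The capitals mark the match in Fzd1, at chr5:4758217-4758466 on the minus strand. No such match was in the Axin2 window, at chr11:108920099-108920348 on the plus strand. Each is written 5′ to 3′ in the direction of the gene, and the RefSeq start of Fzd1 used for its window lies 181 bases upstream of the GENCODE start given above.
Fzd1: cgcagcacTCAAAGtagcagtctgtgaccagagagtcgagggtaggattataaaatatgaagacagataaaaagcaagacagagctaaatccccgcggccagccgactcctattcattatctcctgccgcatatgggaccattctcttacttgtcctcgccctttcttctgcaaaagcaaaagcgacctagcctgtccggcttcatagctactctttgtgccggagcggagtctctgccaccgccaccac
Axin2: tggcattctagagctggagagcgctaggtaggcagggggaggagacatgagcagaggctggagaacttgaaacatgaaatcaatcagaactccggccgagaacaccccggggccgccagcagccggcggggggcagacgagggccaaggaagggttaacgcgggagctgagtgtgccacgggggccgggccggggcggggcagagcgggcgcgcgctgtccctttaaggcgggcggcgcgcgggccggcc
The TCF/LEF letters, present here as their reverse complement TCAAAG, stood in 4 of the 38 windows (10.5%), those of Fzd1, Lef1, Wnt11 and Wnt5b, and in 13.8% of all 32851 windows. The TEAD letters stood in the window of Lgr4 alone (2.63%, against 12.6% of all windows) and the GLI letters in none (against 0.225%). A match is a run of letters and not a shown binding site, and a window with none says nothing of sites farther away.

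Fzd5 differed between the fYap1 groups. Fzd5 (ENSMUSG00000045005, chromosome 1, 64730558 to 64737751), a receptor needed in eye and blood vessel development, was at 2.04, 2.06 and 1.47 log2 CPM in YSGr, 0.15, 0.22 and 0.89 in YSGnr, and 1.27, 0.95 and 1.54 in SG. YSGnr lay below both other groups in every library, and YSGr overlapped SG. Fzd5 was 2.70-fold higher in YSGr than in YSGnr (log2 fold change 1.44 ± 0.31 SE, adjusted p = 0.0396). Its differences from SG, 0.60 in YSGr (adjusted p = 0.256) and −0.83 in YSGnr (adjusted p = 0.139), did not pass. YSGnr 1 had 4 reads of it, and YSGr lay 1.71 above that library, which is alike in Xist. The call was also lost with the length and GC trend removed, and Fzd5 exons overlap Gm38058 on the opposite strand.

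Fzd2 and Fzd7, per kilobase the highest Frizzleds beside Fzd1, passed in no comparison. Their levels per kilobase, on the log2 scale, were 4.19 and 3.93 in YSGr, 4.85 and 4.18 in YSGnr, and 4.39 and 3.87 in SG, and Fzd1 stood at 3.83 in YSGr, 3.64 in YSGnr and 4.55 in SG. By mean level Fzd1 was therefore first of the 10 in SG and the lowest of these 3 in both fYap1 groups, although in YSGr the 3 lie within their spread. Fzd3, a receptor of axon guidance, was at 6.13, 5.77 and 4.85 log2 CPM in YSGr, 5.70, 4.80 and 4.47 in YSGnr, and 6.26, 6.10 and 6.14 in SG. It was low in YSGr 3, YSGnr 2 and YSGnr 3, and did not pass in YSGnr against SG (log2 fold change −1.18 ± 0.36 SE, adjusted p = 0.0955). Its longest transcript, 12734 bases, is among the long ones, and genes in the longest group of transcripts, at or above 4244 bases, had a median difference from SG of −0.20 in YSGr 3, −0.36 in YSGnr 2 and −0.43 in YSGnr 3, against −0.09 to 0.08 in YSGr 1, YSGr 2 and YSGnr 1. Of the 38 tested Wnt genes 15 are in that group. With the trend on length and GC removed the Fzd3 differences were −0.43 ± 0.12 SE in YSGr (adjusted p = 0.0388) and −0.46 ± 0.12 in YSGnr (adjusted p = 0.0557). Fzd10, a receptor of the developing neural tube, had 2.05, 1.65 and 2.38 in YSGr, 0.91, 2.82 and 2.30 in YSGnr, and 3.36, 3.16 and 2.92 in SG, all 6 fYap1 libraries being below SG without passing (adjusted p = 0.141 in YSGr and 0.150 in YSGnr). Fzd8 had 3.41, 3.03 and 2.13 in YSGr, 2.45, 2.39 and 2.53 in YSGnr, and 2.17, 1.89 and 2.07 in SG.

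Among the receptors that work beside the Frizzleds none passed in any comparison. By limma 1, 2 and 2 of the 4 were at an unadjusted p below 0.05, as were 3987, 3909 and 5170 of all 15251 tested genes. Lrp5 and Lrp6 carry the signal for β-catenin, and Lgr4 and Lgr5 bind R-spondins. Lgr5, a stem cell marker of the gut that is itself a Wnt target there, was at 4.23, 4.27 and 3.25 log2 CPM in YSGr, 3.56, 2.86 and 2.78 in YSGnr, and 3.12, 3.38 and 3.35 in SG. It was high in YSGr 1 and 2 and not in YSGr 3. Lrp6 was at 6.44, 6.35 and 5.95 in YSGr, 6.39, 5.50 and 5.46 in YSGnr, and 6.42, 6.52 and 6.45 in SG, with YSGnr 2 and 3 lowest.

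Of the 6 secreted inhibitors 5 were tested, and 1 passed, Dkk3 in YSGr against YSGnr, where 5.97% of all tested genes were called. Dkk3, a relative of the Dickkopf inhibitors whose action on Wnt receptors is disputed (ENSMUSG00000030772, chromosome 7, 112116017 to 112159057), was at 5.34, 4.82 and 4.35 log2 CPM in YSGr, 3.79, 4.004 and 3.95 in YSGnr, and 4.70, 4.80 and 4.85 in SG. YSGnr was below both other groups in every library, and the YSGr libraries spanned the SG range on both sides. Dkk3 was 1.89-fold higher in YSGr than in YSGnr (log2 fold change 0.92 ± 0.22 SE, adjusted p = 0.0475). It was 0.87 lower in YSGnr than in SG without passing the test (adjusted p = 0.0651), and 0.05 higher in YSGr. Among libraries alike in Xist, YSGr was 1.04 above YSGnr 1 and YSGnr 2 and 3 were 0.81 below SG. The calls of Wnt7a, Fzd5 and Dkk3 between YSGr and YSGnr were each lost without any 1 of the SG libraries, YSGr 1, YSGr 2, YSGnr 2 or YSGnr 3 (adjusted p between 0.0734 and 0.187). All 3 were also lost with median scaling, with the 6 libraries of the comparison alone and with the replicate block.

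Some markers of vascular and fibroblast cells also differed between YSGr and YSGnr. Of 12 endothelial markers 3 were higher in YSGr than in YSGnr and 3 fell in YSGnr against SG, and their summed level was 374 to 400 CPM in YSGr, 257 to 353 in YSGnr and 418 to 454 in SG. Of 12 mural cell and fibroblast markers 4 were higher and 1 lower in YSGr than in YSGnr, with sums of 700.1 to 889.6 CPM in YSGr, 643.8 to 691.1 in YSGnr and 748.8 to 815.9 in SG. No marker of either list was without reads in any library. In the same comparison 9 of 12 mature granule neuron markers and 7 of 10 Purkinje cell markers were higher, as given with Wnt7a. The part of any of these cells in the Dkk3, Fzd5 and Wnt5a values was not tested.

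Sfrp1 and Sfrp2, secreted proteins that bind Wnt ligands, had the widest spread within YSGr among the tested Wnt genes. Sfrp1 was at 7.28, 6.89 and 8.99 log2 CPM in YSGr, 9.06, 9.08 and 9.28 in YSGnr, and 8.30, 8.25 and 8.32 in SG. YSGr 1 and 2 were below SG, whereas YSGr 3 and the YSGnr libraries were above it. No comparison passed for Sfrp1 (log2 fold change −0.57 in YSGr against SG, adjusted p = 0.467, 0.85 in YSGnr against SG, adjusted p = 0.251, and −1.42 in YSGr against YSGnr, adjusted p = 0.0750). Without YSGr 3 the same values were −1.21 (adjusted p = 0.000889), 0.85 (adjusted p = 0.00888) and −2.06 (adjusted p = 0.000149), in fits that called 27.9%, 17.3% and 42.8% of all tested genes. Sfrp2 was at 2.85, 2.63 and 6.08 in YSGr, 5.39, 4.72 and 5.15 in YSGnr, and 5.18, 5.30 and 5.20 in SG. YSGr 1 and 2 stood far below the 7 other libraries, and YSGr 3 was the highest of all 9. Its difference in YSGr against SG was −1.37 ± 0.75 SE (adjusted p = 0.288) with all libraries and −2.49 (adjusted p = 0.000141) without YSGr 3.

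Atoh1 and Gli1, markers of granule neuron progenitors, in which activated Smoothened drives growth, split the YSGr libraries in the same way. Atoh1, which defines these progenitors, was at 3.89, 3.34 and 6.89 log2 CPM in YSGr, 6.25, 6.31 and 6.53 in YSGnr, and 5.89, 6.76 and 6.15 in SG. Gli1, a Hedgehog target, was at 5.12, 5.01 and 7.57 in YSGr, 7.49, 7.30 and 7.42 in YSGnr, and 7.65, 7.75 and 7.48 in SG. The listed progenitor markers did not all split in this way. Ptch1 did, at 6.77, 6.53 and 8.27 in YSGr 1, 2 and 3, and Mki67 did not, at 8.96, 8.48 and 8.94. Of the 12 listed progenitor markers 3 fell in YSGr against SG, and 1 was higher and none lower in YSGr than in YSGnr. Their summed levels were 3462, 2739 and 3852 CPM in YSGr, 4027 to 4468 in YSGnr and 4514 to 4638 in SG. None was without reads in any library. In YSGnr against SG the Sfrp1 difference of 0.85 did not pass the test (adjusted p = 0.251). The Atoh1 and Gli1 ranges of these groups overlapped. The part of progenitor number in the Sfrp1, Sfrp2 and Wnt4 values was not tested.

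**Figure D4:**
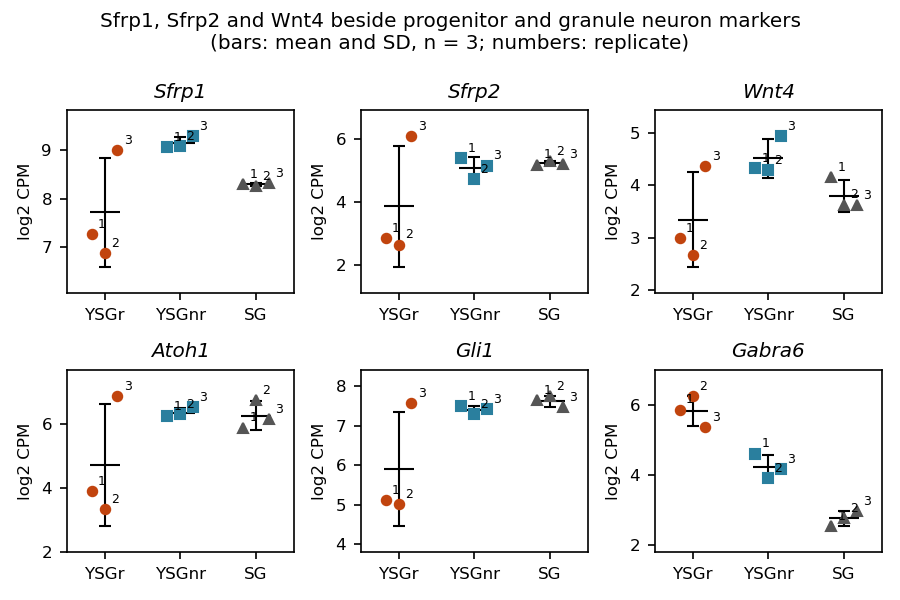
Log2 CPM of Sfrp1, Sfrp2 and Wnt4 (top) and of the progenitor markers Atoh1 and Gli1 and the granule neuron marker Gabra6 (bottom) in YSGr, YSGnr and SG (points with replicate numbers, bars mean and SD, n = 3). YSGr 1 and 2 are low and YSGr 3 high for the top genes, Atoh1 and Gli1, while Gabra6 is high in all 3 YSGr libraries.

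Sfrp4 and Dkk2 were low and did not pass the test. Sfrp4 was at 1.49, 1.24 and 1.42 log2 CPM in YSGr, 2.06, 1.85 and 1.88 in YSGnr, and 1.43, 0.81 and 1.29 in SG, with the 3 YSGnr libraries above the rest (log2 fold change 0.75 in YSGnr against SG, adjusted p = 0.0974). Dkk2 was at 0.32, 0.18 and −0.31 in YSGr, −1.54, −0.25 and −0.36 in YSGnr, and 0.79, 1.06 and 0.95 in SG, where SG was highest. It had a log2 fold change of −1.65 ± 0.40 SE in YSGnr against SG (adjusted p = 0.0579), the lowest of the 38 in that comparison, at levels near the lower limit of the test. Sfrp5 was too low to be tested.

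None of the 4 genes of β-catenin and its scaffold passed the test. With limma 1, 0 and 2 of them reached an unadjusted p below 0.05 in the 3 comparisons. Of all 15251 tested genes 3987, 3909 and 5170 did so, and nothing about these 4 follows from the counts. Axin2, the feedback gene (ENSMUSG00000000142, chromosome 11, 108920349 to 108950783), was at 5.56, 5.40 and 4.70 log2 CPM in YSGr, 4.92, 4.32 and 4.25 in YSGnr, and 4.69, 5.20 and 4.98 in SG. YSGr 1 and 2 were the highest and YSGnr 2 and 3 the lowest, with the other 5 between them. Its log2 fold change was 0.26 in YSGr against SG (95% interval −0.33 to 0.85, adjusted p = 0.591), −0.46 in YSGnr against SG (−1.05 to 0.13, adjusted p = 0.286) and 0.72 in YSGr against YSGnr (adjusted p = 0.100). With YSGr 3 and YSGnr 1 both left out these were 0.52 (adjusted p = 0.0119), −0.67 (0.00294) and 1.19 (9.43e-05), in fits that called 49.5%, 52.9% and 64.7% of all tested genes. These 2 libraries were left out after the data were seen, which narrows the spread within groups, so no conclusion is drawn from these adjusted p-values. With all libraries and the trend on length and GC removed the differences were 0.13 (adjusted p = 0.759), −0.39 (0.342) and 0.52 (0.145). Over the 9 libraries the tested genes whose pattern was most like that of Axin2 were She, 1810013L24Rik, Synj2bp, Kbtbd7 and Neurl4 (Pearson r 0.987, 0.982, 0.980, 0.979 and 0.977), as a description over libraries that also share group and length pattern.

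Ctnnb1, which encodes β-catenin, was at 9.23, 9.06 and 9.71 log2 CPM in YSGr, 9.65, 9.93 and 9.996 in YSGnr, and 9.81, 9.77 and 9.75 in SG. All 3 YSGr libraries were below SG, with YSGr 3 nearest, and YSGnr lay on both sides of SG. The log2 fold change in YSGr against SG was −0.44 ± 0.20 SE (adjusted p = 0.206). Apc was at 9.62, 9.47 and 8.13 in YSGr, 8.88, 8.28 and 7.88 in YSGnr, and 8.997, 8.93 and 9.09 in SG. YSGr 3 stood with YSGnr 2 and 3 at the low end, as it did for Fzd3, whose longest transcript (12734 bases, against 12811 for Apc) is about as long. With the trend on length and GC removed the Apc differences from SG were 0.13 in YSGr (adjusted p = 0.603) and 0.04 in YSGnr (adjusted p = 0.899), against 0.06 and −0.66 (adjusted p = 0.941 and 0.296) as deposited. Per kilobase Ctnnb1 was the highest of the 46 genes in every group, at log2 7.48 in YSGr, 8.001 in YSGnr and 7.92 in SG, followed by Sfrp1 at 5.59, 7.01 and 6.16.

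The 4 TCF/LEF factors, the nuclear partners of β-catenin, shared a direction. All 4 lay below 0 in YSGr against SG (median log2 fold change −0.47) and in YSGnr against SG (−1.19), and 1 of the 4 passed the test, in YSGnr. Of all 15251 tested genes 7973 and 7725 lay below 0 in these comparisons, and 3.36% were called in YSGnr against SG. Tcf7l2, also known for its part in oligodendrocyte maturation (ENSMUSG00000024985, chromosome 19, 55741820 to 55933654), was at 3.70, 3.53 and 3.50 log2 CPM in YSGr, 3.43, 2.79 and 2.77 in YSGnr, and 4.16, 4.05 and 4.11 in SG. The 3 groups did not overlap, with SG highest and YSGnr lowest. Tcf7l2 fell to 0.465 of the SG level in YSGnr (log2 fold change −1.10 ± 0.20 SE, adjusted p = 0.0253). It was at −0.53 ± 0.20 in YSGr against SG (adjusted p = 0.124) and at 0.58 ± 0.20 in YSGr against YSGnr (adjusted p = 0.0887), neither of which passed. Among libraries alike in Xist, YSGr was 0.14 above YSGnr 1 and YSGnr 2 and 3 were 1.32 below SG. The YSGnr call was lost without YSGnr 2, YSGnr 3 or any SG library (adjusted p 0.0729 to 0.142) and held once the trend with length and GC was taken out (−1.06, adjusted p = 0.0243).

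Tcf7l1, usually a repressor of Wnt targets, was at 3.57, 3.40 and 3.996 log2 CPM in YSGr, 3.71, 2.29 and 2.83 in YSGnr, and 4.40, 4.34 and 4.25 in SG. Lef1 was at 2.36, 2.23 and 1.62 in YSGr, 2.12, 0.66 and 0.81 in YSGnr, and 2.55, 2.42 and 2.45 in SG. Tcf7 was at 2.48, 2.44 and 2.01 in YSGr, 2.30, 1.29 and 1.39 in YSGnr, and 2.95, 2.57 and 2.53 in SG. For each of the 3 every fYap1 library was below every SG library, YSGnr 2 and 3 were the lowest of all 9, and YSGnr 1 lay among the YSGr libraries. Of all tested genes 17.3% had every YSGr library below every SG library, and 21.3% had every YSGnr library below. The share with both at once was not counted. The differences between YSGnr and SG were −1.38 ± 0.32 SE for Tcf7l1 (adjusted p = 0.0513), −1.28 ± 0.38 for Lef1 (adjusted p = 0.0889) and −1.02 ± 0.30 for Tcf7 (adjusted p = 0.0839). Without YSGnr 1, the library with the fewest reads, they were −1.77 (adjusted p = 0.00639), −1.74 (0.00782) and −1.34 (0.0107), in a fit that called 21.8% of all tested genes. With all libraries and the trend with length and GC taken out they were −1.44 (adjusted p = 0.0357), −1.23 (0.0963) and −1.18 (0.0842). Oligodendrocyte lineage markers, 2 of 12 of which rose and none of which fell in YSGnr against SG, had summed levels of 1382 to 2439 CPM in YSGnr and 1127 to 1727 in SG, none of them without reads in any library. The part of this cell type, and of the endothelial cells described above, in the TCF/LEF values was not tested.

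Other genes of the pathway were taken from 7 lists holding 112 genes, of which 101 were tested. Cdx1, T, Fgf20, Ascl2, Tle5, Tiki1 and Adgra2 were not analysed here. In YSGr against SG 8 rose and 7 fell, in YSGnr against SG none rose and 4 fell, and in YSGr against YSGnr 6 were higher and 1 lower. By limma 3 of the 101 lay above SG in YSGnr at an unadjusted p below 0.05, as did 1692 of all 15251 tested genes. The 15, 4 and 7 called of 101 stand beside 10.5%, 3.36% and 5.97% of all tested genes called in the same comparisons, and nothing particular to these lists follows from them. The median log2 fold changes over the 101 were −0.09, −0.22 and 0.16 in the 3 comparisons, beside −0.02, −0.01 and 0.01 over all tested genes. Some genes stand in more than 1 list.

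Of 10 tested Wnt target genes 3 fell in YSGr against SG, where 3.97% of all tested genes fell. Apcdd1, a membrane inhibitor of Wnt signalling, was at 6.28, 6.25 and 6.63 log2 CPM in YSGr, 6.25, 6.55 and 6.27 in YSGnr, and 7.31, 7.28 and 7.15 in SG. All 6 fYap1 libraries lay together below SG. It fell in YSGr (log2 fold change −0.86 ± 0.15 SE, adjusted p = 0.0104) and in YSGnr (−0.89 ± 0.15, adjusted p = 0.0207), though both calls were lost with the length and GC trend removed. Rnf43, an enzyme that removes Frizzleds from the cell surface, fell in YSGr against SG (−1.22, adjusted p = 0.0160), as did the cell cycle gene Ccnd1 (−2.03, adjusted p = 0.0385), which is also a Hedgehog target in granule neuron progenitors. Ccnd1 was at 6.47, 6.22 and 8.60 in YSGr, 8.23, 8.78 and 8.66 in YSGnr, and 9.20, 9.11 and 9.09 in SG, so it followed the split of YSGr 3 from YSGr 1 and 2.

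Sp5, a transcription factor induced by Wnt signalling in many tissues, had the largest called difference between YSGr and YSGnr among the Wnt genes and these lists. It was at 4.36, 4.78 and 2.92 log2 CPM in YSGr, 2.38, 1.64 and 1.74 in YSGnr, and 2.57, 2.66 and 2.50 in SG. YSGr lay above both other groups in every library, YSGr 3 by the least. Sp5 was 4.29-fold higher in YSGr than in YSGnr (log2 fold change 2.10 ± 0.42 SE, adjusted p = 0.0354) and was 1.44 ± 0.42 above SG in YSGr without passing the test (adjusted p = 0.0606). Nkd2, an inhibitor that binds Dishevelled, was lower in YSGr than in YSGnr (−0.96, adjusted p = 0.0430). Sp5 and Nkd2 were the called targets between YSGr and YSGnr, 1 in each direction.

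Among 17 tested secreted modulators 2 rose and 2 fell in YSGr against SG, where 6.58% of all tested genes rose and 3.97% fell. Frzb, a secreted Frizzled-related inhibitor that carries no Sfrp symbol, was at 3.12, 2.94 and 2.68 log2 CPM in YSGr, 1.77, 2.05 and 1.80 in YSGnr, and 1.59, 1.55 and 1.64 in SG. The YSGr libraries were all above the other 6. Frzb rose 2.50-fold in YSGr against SG (log2 fold change 1.32 ± 0.20 SE, adjusted p = 0.00599) and was 2.06-fold higher than in YSGnr (1.04 ± 0.20, adjusted p = 0.0311). Its call against SG held in all 9 fits that left out 1 library, the single call among those of the 46 genes and the 7 lists to do so. Trabd2b, a protease that cuts Wnt ligands, rose as well (1.14, adjusted p = 0.0346) and was 3.31-fold higher in YSGr than in YSGnr (1.73, adjusted p = 0.0267). Gpc4, a cell surface proteoglycan, was higher in YSGr than in YSGnr (1.32, adjusted p = 0.0476). Draxin, an axon guidance protein that also binds Wnt co-receptors, fell in YSGr against SG (−1.75, adjusted p = 0.0356). Draxin was at 7.50, 6.90 and 9.01 in YSGr 1, 2 and 3, and 9.48, 9.70 and 9.47 in SG, with YSGr 3 nearest to SG.

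In the remaining lists the calls against SG were spread over both directions in YSGr and were all downward in YSGnr. As for the Wnt genes, group and Xist cannot be told apart for any of the listed genes in YSGr against SG. Amer3, a relative of the Apc-binding protein Amer1, rose in YSGr against SG (log2 fold change 1.65, adjusted p = 0.0106) and was 1.16 above YSGnr (adjusted p = 0.0480). The β-catenin relative Jup rose (0.78, adjusted p = 0.0160, and 0.85 above YSGnr, adjusted p = 0.0278). Of the Groucho co-repressors, which bind TCF/LEF factors, Tle2 rose (1.06, adjusted p = 0.0359) and Tle1 fell (−1.35, adjusted p = 0.0359). Tle1 was at 5.87, 5.58 and 7.16 log2 CPM in YSGr 1, 2 and 3, and 7.66, 7.50 and 7.49 in SG, with YSGr 3 nearest to SG. Tspan12, a partner of Fzd4 in blood vessels, fell in YSGr (−0.58, adjusted p = 0.0488) and YSGnr (−0.71, adjusted p = 0.0473). Of 18 planar cell polarity genes, which serve Wnt signalling without β-catenin, Prickle1 (0.80, adjusted p = 0.0443) and Prickle3 (1.54, adjusted p = 0.0197) rose in YSGr. Celsr1 fell in YSGr (−1.04, adjusted p = 0.0343) and in YSGnr (−1.55, adjusted p = 0.0207), and Daam2 fell in YSGnr (−0.94, adjusted p = 0.0284). Of all tested genes 6.58% rose and 3.97% fell in YSGr against SG, and 2.17% fell in YSGnr against SG. Of the 26 calls in these lists, 8 held under all alternatives other than leaving out 1 library, and none changed its sign. Apart from that of Frzb, each call of these genes against SG was lost without at least 1 library (adjusted p 0.0502 to 0.201), never YSGr 3 or YSGnr 1.

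**Figure D5:**
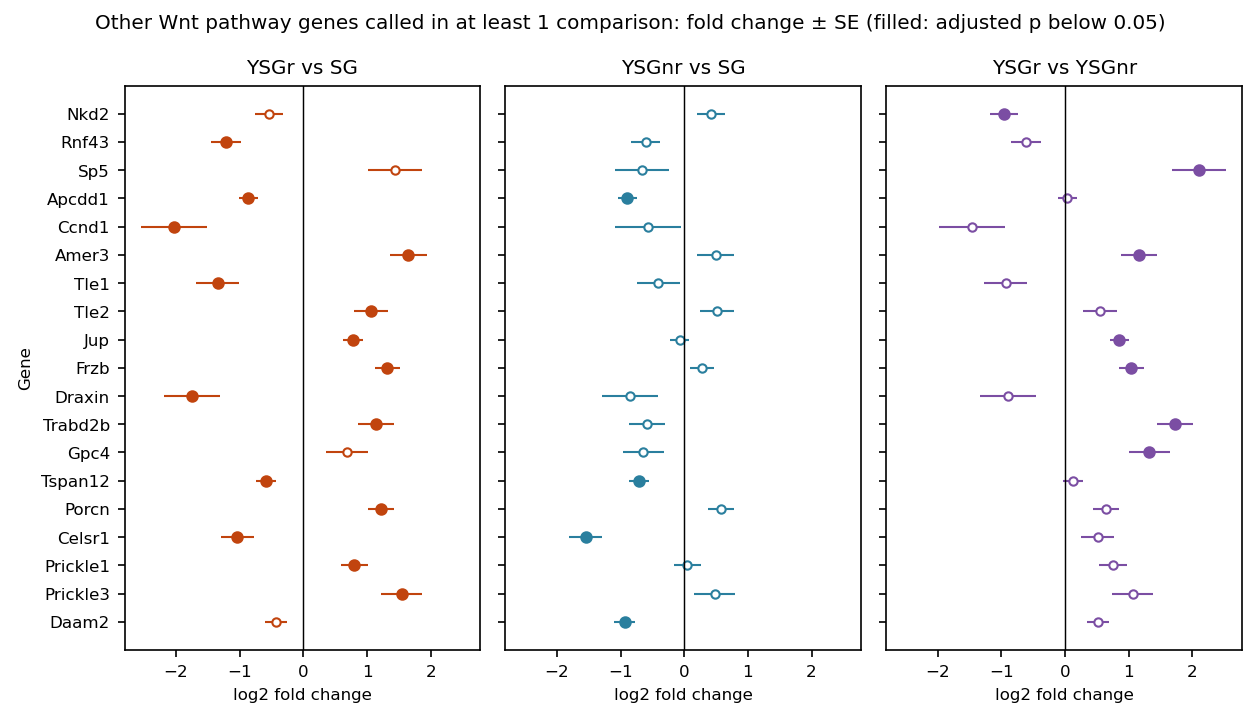
Log2 fold change ± SE of the other Wnt pathway genes called in at least 1 comparison, for YSGr against SG, YSGnr against SG and YSGr against YSGnr, with filled points where the adjusted p was below 0.05. In YSGr against SG called points lie on both sides of 0, and in YSGnr against SG all 4 lie below it.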

How the data were processed

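Bulk RNA-seq of 9 libraries was deposited by the authors as 1 table of log2 CPM per gene. Per the submitters' processing notes the authors used Trimmomatic, RSEM, Bowtie2, Picard and edgeR with the build mm10. Tool versions, annotation and strand setting were not given in any source used here. The added count of the deposited log2 values averaged 2.000 reads, and 62.2% to 70.8% of low values came back as whole reads within 0.02 of a read, so they derive from estimated counts and no count test was run. A few reads per gene limit the precision of low genes, most of all in YSGnr 1. limma 3.58.1 in R 4.3.3 was fitted with its mean-variance trend to the 15251 genes above log2 CPM 0 in at least 3 of 9 libraries, with 1 mean per group and Benjamini-Hochberg adjustment over them all. The procedure was tested on simulated data with independent noise and 1 spread per gene over all groups. Outlying libraries such as YSGr 3 and YSGnr 1 were not simulated, so the simulation does not vouch for calls that depend on them. Transcript lengths and positions came from GENCODE on GRCm38, the assembly of mm10.

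The Wnt genes and all lists were chosen with earlier results of these data known. Values for every library were given for genes called in any comparison, for Axin2, Lef1, Tcf7l1, Tcf7l2, Ctnnb1 and Apc, and for up to 12 further Wnt genes with the largest fold changes. Wls, Wnt6, Dkk2, Lrp6, Fzd2, Fzd7 and the pair of Wnt7a with Wnt7b were named outside that rule, after their values were seen. The markers Atoh1, Gli1, Ptch1, Mki67 and Gabra6 were also picked from their lists outside that rule. Of the other pathway genes, up to 5 called ones per list and comparison were named. The alternatives were other filters, a pseudocount of 1 CPM, median scaling, only the 6 libraries of a comparison, a fit without the trend, a replicate block and leaving out each library. Leaving out YSGr 3 with YSGnr 1, and removing a loess trend on transcript length and GC content, were added after seeing the data.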

Additional observations from a re-analysis of the deposited data

Results flagged for a closer look

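The following genes were set apart because the effect against SG differed between YSGr and YSGnr by a test of the difference itself, the limma contrast of YSGr against YSGnr, at an adjusted p below 0.05. Among the Wnt genes the log2 differences were 0.62 for Wnt7a, 1.44 for Fzd5 and 0.92 for Dkk3. Among the other pathway genes they were 1.16 for Amer3, 1.04 for Frzb, 1.32 for Gpc4, 0.85 for Jup, −0.96 for Nkd2, 2.10 for Sp5 and 1.73 for Trabd2b. Each of these calls was lost in 7 of the 9 fits that left out 1 library, all except those without YSGr 3 or without YSGnr 1, and with the 6 libraries of the comparison alone.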

How the results depend on the processing

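No named value changed its sign in a called comparison, but the counts depended on single libraries and on the fit. In this paragraph counts are of Wnt genes, other pathway genes and all genes called, and the cause of each move was not tested. For YSGr against SG they were 4, 15 and 1608, and leaving out 1 library in turn gave 0 to 14, 2 to 35 and 328 to 4257. With YSGr 3 and YSGnr 1 both out they were 23, 53 and 7556, and the 6 libraries alone gave 8 Wnt genes. For YSGnr against SG they were 2, 4 and 512, with 0 to 11, 0 to 26 and 19 to 3332 when leaving out 1 library, 21, 60 and 8074 with both out, and 6, 11 and 1190 with the 6 libraries alone. A pseudocount of 1 CPM gave 4 Wnt genes there and removing the length and GC trend 2 other pathway genes. For YSGr against YSGnr they were 3, 7 and 910, with 0 to 20, 0 to 50 and 1 to 6528 when leaving out 1 library, 30, 70 and 9867 with both out, 0, 0 and 0 with the 6 libraries alone and 0, 4 and 316 with median scaling. Without the trend 568 genes in all were called there, and 1641 with 12 other pathway genes when the length and GC trend was removed. Of the 9 calls of Wnt genes, 0 held in all 9 fits without 1 library and 5 in all other alternatives. The added count and the small size of YSGnr 1 limit what can be seen of genes such as Wnt10b and Fzd5.

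The groups share replicate numbers, but same-numbered libraries did not deviate together (correlations −0.23 to 0.24), so the numbers were not taken as pairs. With the replicate number as a block, 3, 2 and 1 Wnt genes were called in the 3 comparisons, and 341 genes in all in YSGnr against SG.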
